A study of Homo sapiens with 18 samples.

Results

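The genes described here are 56 genes of the G2 phase and of mitosis, chosen by name as a cell-division module and read on 18 expression arrays of human mammary epithelial cells. All 56 had a probe set of their own on the array, and all 56 lay above the background level, among 12171 genes that did and 19775 genes with a probe set. Each gene was read by the probe set with the highest mean over the 18 arrays, and a level is the deposited intensity or log2(intensity + 1). A level depends on the probe set, so it was compared between arrays and never between genes.

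The cells were MCF10A, an immortalised and non-malignant mammary epithelial line that lacks CDKN2A and carries an amplified MYC. MCF10A-CT is the line kept in standard medium without added BMP2 or IL6, MC26 was derived from unsorted MCF10A cells by long exposure to both factors, and M1B26 from cells first sorted for the BMP receptor BMPR1B. M1B26 was expanded from soft-agar clones in medium with both factors. MC26 and M1B26 stayed in medium with IL6 at 10 ng/ml and BMP2, for which the sample labels give 5 ng/ml and the growth protocol 10 ng/ml. The medium of all 3 lines held horse serum, insulin, hydrocortisone, cholera toxin and EGF. Each line was profiled as unsorted cells and after flow cytometry into CD10- and CD10+ cells, CD10 being the membrane peptidase encoded by MME. Each of the 9 groups had 2 arrays, labelled as biological replicates. The unsorted cells were frozen after trypsin treatment, whereas the sorted cells were first stained for CD10 and passed through the sorter.

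Entry into mitosis is driven by the kinase CDK1 bound to cyclin A or cyclin B, and most genes needed for chromosome condensation, spindle assembly and cytokinesis are transcribed together late in the cycle. They are repressed in resting cells and in G1 by the DREAM complex and activated by the MuvB complex with B-MYB and FOXM1. These complexes act through CHR elements in the promoters, which often have CCAAT boxes nearby. Their transcripts are therefore scarce in cells that have left the cycle and are widely used to read how much of a population is dividing.

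MME intensity followed the sort in each line. It was 9.73 and 11.2 in CD10- against 48.3 and 65.0 in CD10+ MCF10A-CT cells, 27.9 and 6.39 against 69.8 and 90.7 in MC26, and 56.4 and 15.9 against 1269 and 1021 in M1B26. Of the mammary epithelial markers, 16 of 16 with a probe set lay above background, and their mean log2 level spanned 10.6 to 10.8 on the sorted MCF10A-CT arrays and 9.23 to 10.6 on the others. Of 13 leukocyte and endothelial markers with a probe set 5 lay above background, with a mean log2 level over the 13 of 3.12 to 3.95 over all arrays. Correlations between arrays ran from 0.865 to 0.985 and between the 2 arrays of a group from 0.949 to 0.979.

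The members were lowest on the 4 sorted MCF10A-CT arrays. As a summary, each member was set to its deviation from its own mean over the 18 arrays, and the 56 deviations of an array were averaged. This mean was 0.51 and 0.57 on the log2 scale in unsorted MCF10A-CT cells, -1.40 and -1.65 in their CD10- cells and -0.99 and -1.15 in their CD10+ cells. On the 8 arrays of sorted MC26 and M1B26 cells it lay between 0.17 and 0.60. The unsorted MC26 arrays gave -0.23 and 0.73, and the unsorted M1B26 arrays -0.12 and 0.62. The sorted MCF10A-CT arrays, between -1.65 and -0.99, thus lay apart from the other 14, which lay between -0.23 and 0.73. In whole populations of cells, fewer cells with these transcripts and less of each transcript per cell cannot be told apart.

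**Figure D1:**
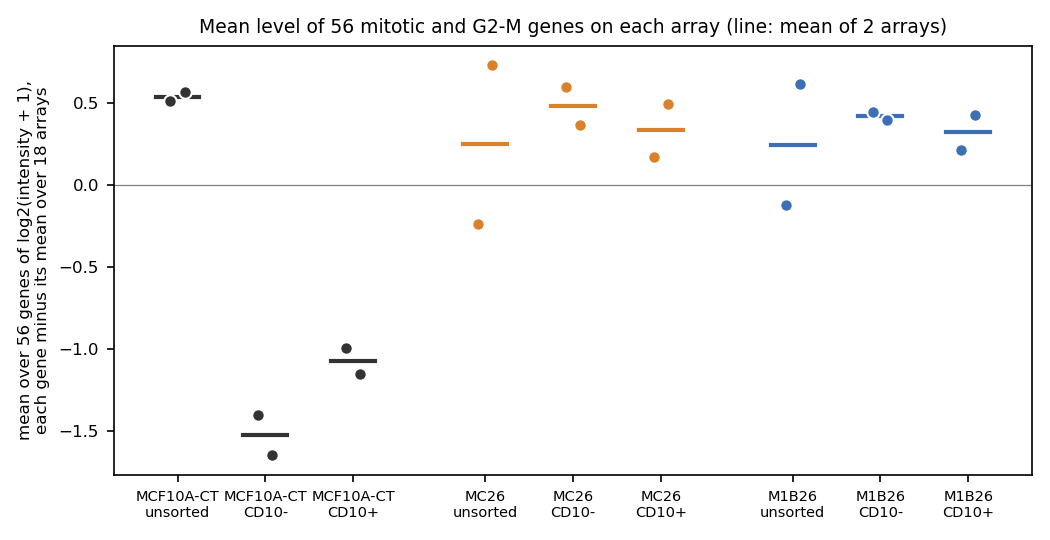
The mean log2 deviation of the 56 mitotic and G2-M genes is plotted for each of the 18 arrays (points), with the mean of the 2 arrays of each group as a line, and the groups are ordered by cell line and sort. The 4 sorted MCF10A-CT arrays lie between -1.65 and -0.99 and all others between -0.23 and 0.73.

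The separation held gene by gene. For 55 of the 56 members the 4 sorted MCF10A-CT arrays were below all 14 other arrays, which was so for 11.4% of all genes tested. The exception, as read by the chosen probe sets, was TOP2A, which encodes DNA topoisomerase II alpha. Its intensity reached 938 in 1 CD10+ MCF10A-CT array and was 876 in 1 unsorted MC26 array.

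**Figure D2:**
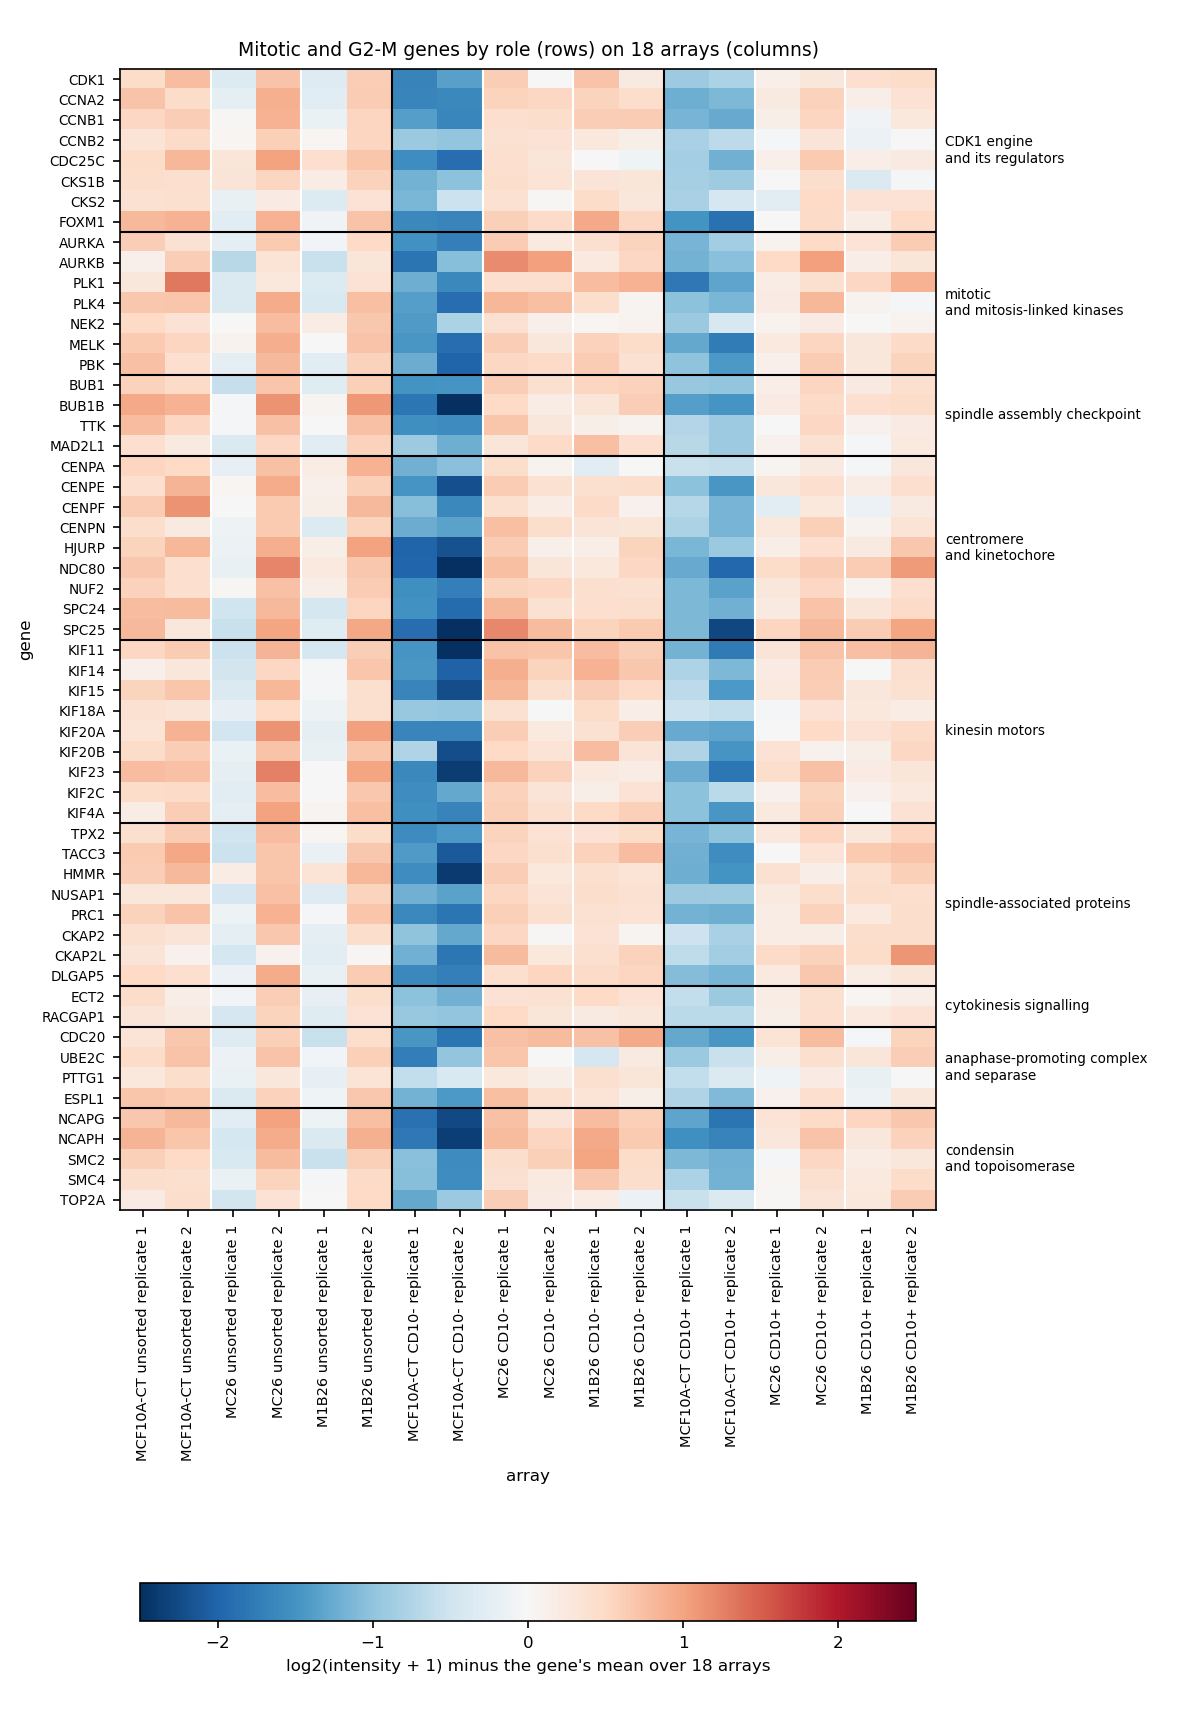
The colour gives the log2(intensity + 1) of each of the 56 genes (rows, grouped by role) on each of the 18 arrays (columns) minus the gene's mean over the 18 arrays. The blue columns, low in all 9 roles, are the 4 sorted MCF10A-CT arrays, and the pale columns among the unsorted arrays are replicate 1 of MC26 and of M1B26.

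Sorted and unsorted cells of each line were compared with limma, the 2 CD10- and 2 CD10+ arrays counting equally as sorted. In MCF10A-CT all 56 members fell after adjustment over all genes, against 15.6% of all genes that were lower and 6.58% that were higher. The members' median difference was -1.83 on the log2 scale (3.57-fold lower), with a range of -2.70 to -0.85, while the median over all genes was -0.13. Centring the arrays on the tested genes moved that all-gene median to 0.04 and changed the split of all calls from 801 higher and 1904 lower to 1418 and 1499, and quantile normalization gave 1394 and 1581. The 56 members stayed called as lower under both, with medians of -1.66 and -1.70. The 4 sorted arrays did not overlap the 2 unsorted ones, on the lower side, for 56 members, against 29.6% of all genes. With CD10- cells alone as the sorted cells 56 members were lower (median -2.11, 9.19% of all genes lower), and with CD10+ cells alone 55 (median -1.65, 10.1% of all genes lower), all but TOP2A.

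The CDK1 engine fell as a whole, with a median difference of -1.86 over 8 members. CDK1, the kinase that starts mitosis, had intensities of 1968 and 2454 in unsorted MCF10A-CT cells, 452 and 556 in CD10- cells and 760 and 826 in CD10+ cells. In the MC26 and M1B26 arrays it spanned 1137 to 2355, above every sorted MCF10A-CT array. Its difference in MCF10A-CT was -1.80 ± 0.29 (SE, 4 sorted against 2 unsorted arrays, limma adjusted p = 0.00111). CCNB1, cyclin B1 and partner of CDK1, went from 2798 and 2979 in unsorted cells to 751 and 629 in CD10- and 863 and 808 in CD10+ cells. That is a difference of -1.93 ± 0.23 (limma adjusted p = 1.53e-04), and the other 2 lines spanned 1733 to 3567. FOXM1, the transcription factor that activates many genes of this module, went from 507 and 530 to 93.5 and 91.8 in CD10- cells and to 102 and 78.7 in CD10+ cells. Its difference of -2.50 ± 0.29 (limma adjusted p = 1.53e-04) was the lowest of the 8. CKS1B, a small CDK-binding subunit, had 3441 and 3384 against 1125, 1245, 1422 and 1378, a difference of -1.41 ± 0.16. CDC25C, the phosphatase that switches CDK1 on, and CCNA2, cyclin A2, differed by -2.02 and -1.99, and CCNB2 and CKS2 by -1.25 and -1.11.

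The mitotic and mitosis-linked kinases had a median of -1.99 over 7 members. PLK1, the Polo-like kinase that acts in mitotic entry and on kinetochores, had 140.5 and 290 in the 2 unsorted MCF10A-CT arrays, 48.4 and 36.7 in CD10- and 32.6 and 45.3 in CD10+ cells. Its unsorted replicates were far apart, yet both lay above all 4 sorted arrays, and the difference was -2.30 ± 0.30 (limma adjusted p = 3.38e-04). AURKA, Aurora A of the centrosomes and spindle, went from 1438 and 1229 to 328, 288, 421 and 510, a difference of -1.81 ± 0.24. Its probe set can also bind related transcripts, and with such probe sets left out AURKA was read by a dimmer one that gave -0.53 (limma adjusted p = 0.227), while its remaining probe set gave -1.44. AURKB, Aurora B of the chromosomal passenger complex, went from 286.5 and 402 to 72.8, 124, 114 and 126, a difference of -1.66 ± 0.31. MELK, a kinase of dividing cells, had 1868 and 1702 against 430.5, 313, 485 and 351.1, a difference of -2.19 ± 0.25 and among the 5 members with the smallest p. PLK4, which controls centriole duplication, differed by -2.04, PBK by -1.99 and NEK2, a centrosome kinase, by -1.30.

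The spindle assembly checkpoint delays anaphase until every chromosome is attached, and its 4 members had a median of -1.79. BUB1B, which encodes the checkpoint protein BubR1, showed the lowest value of all 56 members, -2.70 ± 0.31 (6.50-fold lower, limma adjusted p = 1.40e-04). Its intensities were 1343 and 1261 in unsorted, 197 and 121 in CD10- and 266 and 249 in CD10+ MCF10A-CT cells, against 673 to 1508 in the other 2 lines. BUB1, the kinase that recruits checkpoint proteins to kinetochores, went from 695 and 641 to 163 and 165 in CD10- and 240 and 233 in CD10+ cells (difference -1.76 ± 0.29). TTK, the Mps1 kinase that starts checkpoint signalling, went from 784 and 656 to 159, 153, 276 and 245 (difference -1.83 ± 0.25). MAD2L1, the Mad2 inhibitor of the anaphase-promoting complex, moved less, from 3500 and 3061 to 1389, 1124, 1612 and 1399 (difference -1.26 ± 0.25). For all 4 the CD10+ arrays stood between the CD10- and the unsorted ones. BUB1, BUB1B and TTK belong to ENI10, the study's signature of CD10+ MCF10A-CT cells, which was chosen on these sorted arrays. For them this order is therefore no independent evidence.

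The centromere and kinetochore genes had the lowest median of the 9 roles, -2.18 over 9 members. NDC80 and NUF2, subunits of the microtubule-binding NDC80 complex, differed by -2.47 ± 0.32 and -1.92 ± 0.21 (limma adjusted p = 3.46e-04 and 1.24e-04). NDC80 had 552 and 461 in unsorted cells and 86.6, 60.7, 142 and 87.8 in sorted cells, and NUF2 had 720 and 639 against 166, 147, 218 and 189. The other 2 subunits, SPC24 and SPC25, differed by -2.21 and -2.64, so the complex fell in all 4 parts. CENPA, the histone H3 variant that marks centromeres, went from 256 and 248 to 76.5, 84.3, 119 and 117 (difference -1.36 ± 0.26). HJURP, the chaperone that deposits CENPA, differed by -2.25. CENPF, a large kinetochore protein, went from 1269 and 1796 to 391, 267, 501 and 367 (difference -2.02 ± 0.27). CENPE, a kinetochore motor, and CENPN, which binds CENPA nucleosomes, differed by -2.18 and -1.46.

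The kinesin motors had a median of -1.84 over 9 members. KIF11, the Eg5 motor that pushes spindle poles apart, went from 721 and 784 to 180, 78.1, 221 and 148, a difference of -2.35 ± 0.38 (limma adjusted p = 0.00104). KIF20A, a motor of the central spindle, went from 836 and 1209 to 212, 210.5, 277 and 266, a difference of -2.07 ± 0.37. KIF23, the motor of the centralspindlin complex, differed by -2.51 and KIF18A, which damps chromosome movements, by -1.12, which bounded the kinesins on either side. The remaining 5 lay between -2.11 and -1.55: KIF15, a spindle motor, KIF20B and KIF14, which act in cytokinesis, KIF4A, a chromosome-bound motor, and KIF2C, which takes microtubules apart.

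The spindle-associated proteins had a median of -1.84 over 8 members. HMMR, a spindle-pole protein, had the smallest p of all members, with 1701 and 1937 in unsorted cells, 375 and 210.1 in CD10- and 471 and 393 in CD10+ cells (difference -2.38 ± 0.23, limma adjusted p = 7.61e-05). TPX2, which activates Aurora A, went from 892 and 1048 to 225, 247, 299 and 333 (difference -1.82 ± 0.26). NUSAP1, a microtubule-binding protein, went from 1643 and 1641 to 582, 530, 720 and 729 (difference -1.37 ± 0.26). PRC1, which bundles microtubules in the central spindle, went from 1973 and 2164 to 428, 372, 579 and 568 (difference -2.11 ± 0.24). The other 4, TACC3, DLGAP5, CKAP2L and CKAP2, differed by -2.38, -1.85, -1.34 and -1.26. Cytokinesis signalling was represented by ECT2, the activator of RhoA at the cleavage furrow, and RACGAP1, its partner in centralspindlin. ECT2 went from 1776 and 1437 to 633, 560, 838 and 674 (difference -1.25 ± 0.21) and RACGAP1 from 1432 and 1336 to 598, 580, 714.5 and 722 (difference -1.09 ± 0.23).

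Among the genes of anaphase, CDC20, the activator of the anaphase-promoting complex, went from 1216 and 1530 to 351.1, 271, 398 and 351.8 (difference -2.00 ± 0.29, limma adjusted p = 5.91e-04). PTTG1, securin, which that complex destroys to free separase, showed the smallest change of the module. Its only probe set can also bind related transcripts. PTTG1 went from 4987 and 5559 to 2677, 3179, 2679 and 3193, a difference of -0.85 ± 0.17 (1.80-fold lower, limma adjusted p = 0.00387). ESPL1, separase itself, and UBE2C, the ubiquitin-conjugating enzyme of the complex, differed by -1.80 and -1.63. Of the chromosome-shaping genes, NCAPG and NCAPH, both of condensin I, differed by -2.56 and -2.61, and SMC2 by -1.78. SMC4, a core subunit of both condensins, went from 2362 and 2295 to 827, 594, 1001 and 764 (difference -1.57 ± 0.22). TOP2A went from 1395 and 1647 to 496.5 and 639 in CD10- and to 820 and 938 in CD10+ cells (difference -1.11 ± 0.24, limma adjusted p = 0.00521). Another TOP2A probe set, with a mean log2 level of 10.17 against 10.24 for the chosen one, gave -1.62.

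**Figure D3:**
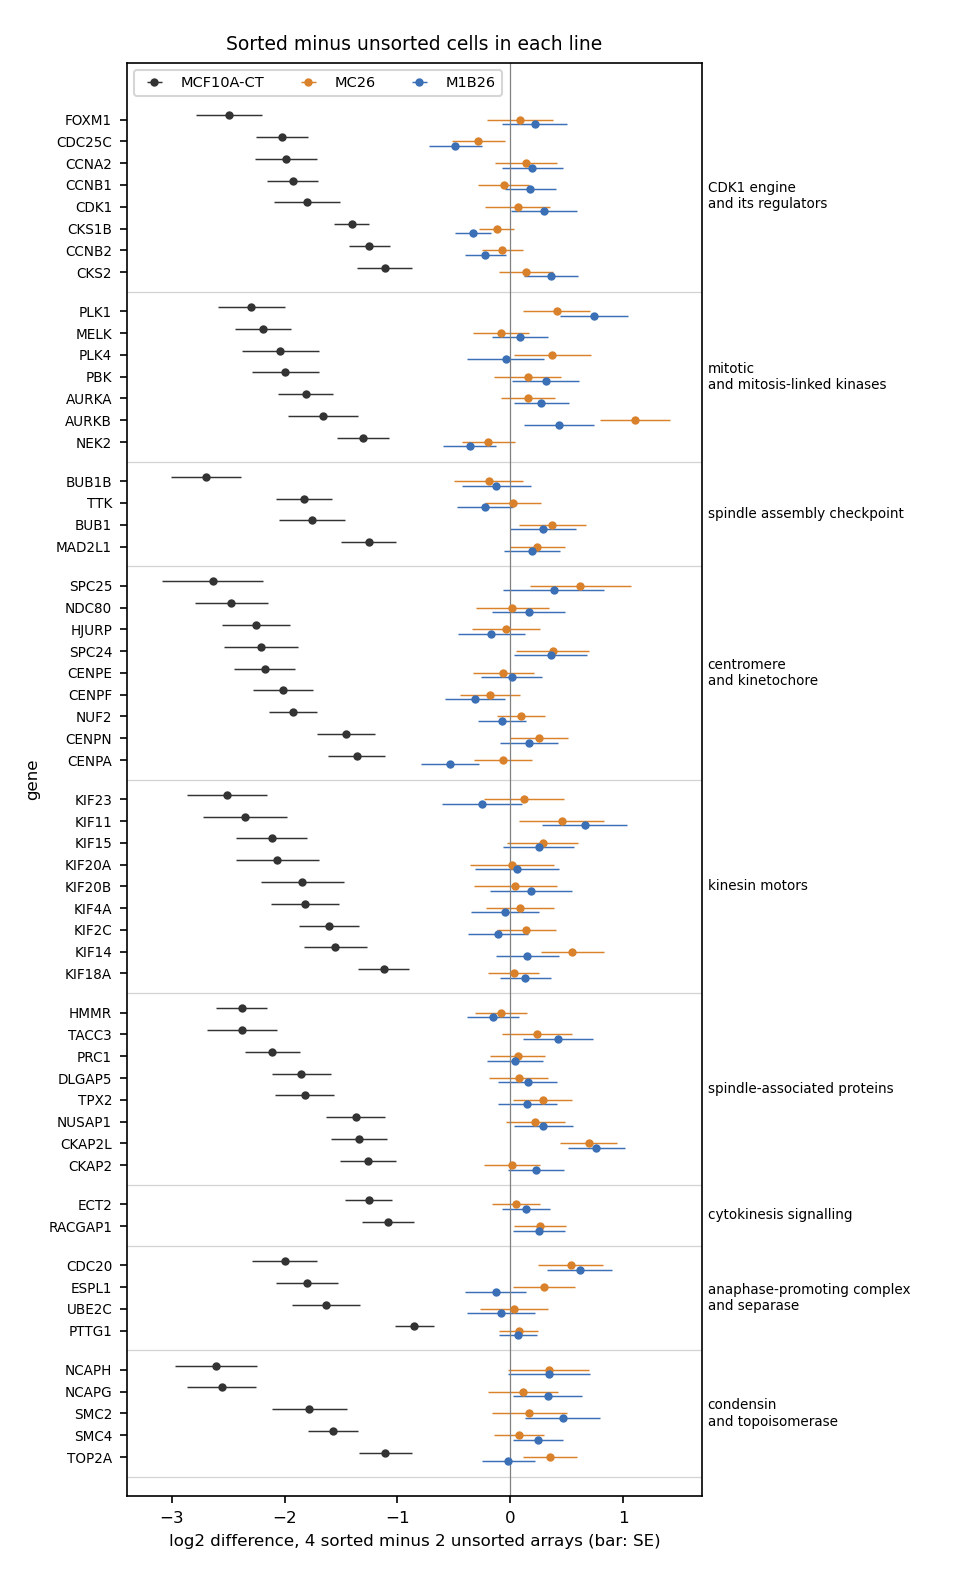
Each point is the log2 difference between 4 sorted and 2 unsorted arrays for a gene in MCF10A-CT, MC26 or M1B26, with its SE as a bar, and genes are grouped by role. The MCF10A-CT values lie between -2.70 and -0.85, and those of MC26 and M1B26 lie around 0.

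The other probe sets of the members moved with the chosen ones. There were 45 of them, for 27 members, and 32 lay above background, of which 31 were lower in sorted MCF10A-CT cells. The exception was a probe set of CCNB2 close to background, at 0.10 against -1.25 for the chosen one. Probe sets below background with a difference above 0 belonged to CDC25C, CENPN, CKAP2 and SPC24.

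Promoters were searched for the letters of a CHR element and of a CCAAT box, since the members moved together and these elements are known from mitotic genes. RefSeq start sites on GRCh38.p14 gave 49 of the 56 members a promoter, and the 250 bases before the first listed start were searched on both strands. The CHR was spelled TTTGAA or TTCGAA and the CCAAT box CCAAT, and no CHR match overlapped a CCAAT match. A CHR match was found for 24 of the 49 members (49.0%) against 14.6% of 27305 promoters of the same length, and a CCAAT match for 35 (71.4%) against 33.0%. Both occurred in 20 members (40.8%) and in 5.24% of all promoters, and neither in 10 members. All 29 CHR matches of members read TTTGAA, at a median of 35 bases before the start, compared with 146 over all promoters, and 16 members had 1 within 60 bases. The stretches between the outermost matches, with 10 bases on either side, are shown for 6 members from different roles that hold both motifs, with the matches in capitals. ATTGG and TTCAAA are CCAAT and TTTGAA read on the opposite strand.
CDK1 (chr10:60778160-60778195, plus strand): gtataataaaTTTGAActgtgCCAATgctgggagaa
PLK1 (chr16:23678806-23678875, plus strand): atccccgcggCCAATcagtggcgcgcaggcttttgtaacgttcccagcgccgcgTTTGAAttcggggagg
CENPA (chr2:26785841-26786053, plus strand): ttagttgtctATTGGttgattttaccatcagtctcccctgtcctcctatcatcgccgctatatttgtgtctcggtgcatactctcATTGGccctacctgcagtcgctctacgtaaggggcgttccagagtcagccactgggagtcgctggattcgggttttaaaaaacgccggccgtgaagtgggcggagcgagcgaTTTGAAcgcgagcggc
KIF11 (chr10:92593067-92593117, plus strand): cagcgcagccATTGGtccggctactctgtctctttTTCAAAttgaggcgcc
ECT2 (chr3:172750601-172750682, plus strand): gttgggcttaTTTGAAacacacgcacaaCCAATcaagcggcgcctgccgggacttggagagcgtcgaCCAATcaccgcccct
CDC20 (chr1:43358793-43358940, plus strand): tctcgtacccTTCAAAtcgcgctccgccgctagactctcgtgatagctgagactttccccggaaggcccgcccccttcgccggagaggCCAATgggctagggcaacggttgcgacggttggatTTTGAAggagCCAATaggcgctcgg

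In PLK1, CENPA and KIF11 the CHR letters lay 29, 18 and 28 bases before the start, while in CDK1 and ECT2 they lay 161 and 115 bases before it. The 24 members with a CHR match had a median difference between sorted and unsorted MCF10A-CT cells of -1.84, and the 25 without one -1.92. With and without a CCAAT match the medians were -1.80 and -2.08. Members with a CHR match spanned -2.70 to -1.11 and those without one -2.61 to -0.85, so the ranges overlapped. A match is a description of the letters and not a bound site.

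Genes of the same programme outside the module were counted alongside. Of 51 other mitotic genes above background 49 were lower in sorted MCF10A-CT cells (median -1.80), among them MKI67, the Ki-67 antigen, at -2.07 ± 0.32, and the cytokinesis gene ANLN at -1.98 ± 0.35. BIRC5 and CDCA8, of the chromosomal passenger complex, differed by -1.73 and -1.64. Of 43 genes of DNA replication and the G1-S step 40 were lower (median -2.06), so the lower levels were not limited to mitotic genes. Of 12 genes linked to cell-cycle arrest none was lower and 4 were higher, against 6.58% of all genes. These were the CDK inhibitors CDKN1C (2.21 ± 0.50, limma adjusted p = 0.00667) and CDKN2D (2.25 ± 0.50, limma adjusted p = 0.00628), the antiproliferative gene BTG1 (1.35) and the transcription factor KLF4 (1.75). CDKN1A, the p53 target that encodes p21, differed by 0.56 ± 0.39 and did not pass (limma adjusted p = 0.324). GAS1 (-1.40 ± 0.76, limma adjusted p = 0.199) and RB1 (-0.51 ± 0.20, limma adjusted p = 0.0734) lay below 0 and did not pass either. The rest of the list lay above 0 without passing. CDKN2D also had values above 0 in MC26 (1.99 ± 0.50, limma adjusted p = 0.0741) and M1B26 (1.25 ± 0.50, limma adjusted p = 0.188), where no member was lower, whereas CDKN1C was at -0.87 and 0.69, BTG1 at -0.56 and -0.14 and KLF4 at -1.49 and -1.29, none past the threshold.

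In MC26 and M1B26 no member passed the test between sorted and unsorted cells, by limma or by the unmoderated test. In MC26 0.822% of all genes passed, the members' median was 0.10 with 44 of 56 above 0 (all genes -0.07), and 2 members had an unadjusted p under 0.05. The smallest p values belonged to AURKB (1.11 ± 0.31, limma adjusted p = 0.106), CKAP2L (0.69 ± 0.25) and KIF14 (0.55 ± 0.28), each with a value above 0. In M1B26 4.21% of all genes passed, the members' median was 0.16 with 38 of 56 above 0, and again 2 members had an unadjusted p under 0.05. Over all genes the median in M1B26 was 0.10, with 7303 of 12171 above 0. The sign of both medians turned with 1 unsorted array, to -0.35 in MC26 and -0.23 in M1B26 without replicate 1, and they were 0.66 and 0.52 without replicate 2. The smallest p values belonged to CKAP2L (0.76 ± 0.25, limma adjusted p = 0.107), PLK1 (0.74 ± 0.30) and CDC20 (0.61 ± 0.29). The median of the G1-S genes was 0.50 in MC26 and 0.72 in M1B26.

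The difference between the lines was tested directly. The sorted minus unsorted difference of MC26 exceeded that of MCF10A-CT for 55 of the 56 members, with 4.03% of all genes called in that direction and a median over members of 2.03. That of M1B26 exceeded it for 54, with 9.14% of all genes called in that direction and a median of 2.04. Both tests rest on the same MCF10A-CT arrays. NEK2 did not pass in either (1.11, limma adjusted p = 0.0603, and 0.94, limma adjusted p = 0.0725), and CENPA passed for MC26 (1.30) but not for M1B26 (0.83, limma adjusted p = 0.142). The smallest p values went to HMMR (2.30 ± 0.32), NUF2 (2.02 ± 0.30), PLK1 (2.71 ± 0.42), AURKB (2.77 ± 0.44) and PRC1 (2.17 ± 0.35) for MC26. For M1B26 they went to PLK1 (3.04 ± 0.42), HMMR (2.23 ± 0.32), NCAPG (2.89 ± 0.44), FOXM1 (2.71 ± 0.41) and CCNB1 (2.11 ± 0.32). For CDK1 the differences between the lines were 1.87 ± 0.41 and 2.10 ± 0.41. The count for MC26 fell to 20 without replicate 1 of unsorted MC26, to 23 and 28 without either unsorted MCF10A-CT array and to 3 with an unmoderated test. That for M1B26 fell to 13 without replicate 1 of unsorted M1B26 and to 32 with the unmoderated test.

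Measures of RNA handling also differed with sorting, in all 3 lines. The ratio of the 3' to the 5' probe set of ACTB was 1.56 to 2.14 on the unsorted arrays, 1.23 to 1.34 on the sorted MCF10A-CT arrays and 1.11 to 1.32 on the sorted arrays of MC26 and M1B26. The mean log2 level of the poly-A RNAs added before labelling was 6.89 to 7.15, 8.47 to 8.95 and 7.52 to 8.86 in the same order, while the GAPDH ratio was 0.93 to 1.10 on all arrays. The lower ACTB ratio and the higher added RNA were thus shared by the sorted arrays of all 3 lines. Among the sorted arrays the added RNA was highest in MCF10A-CT, apart from 2 arrays of CD10- cells of MC26 and M1B26 at 8.57 and 8.86. The part of either measure in the members' values was not tested.

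The 2 unsorted arrays of MC26, and those of M1B26, differed in the module. All 56 members were higher in replicate 2 than in replicate 1 in both lines, with a median gap of 0.96 in MC26 and 0.71 in M1B26 on the log2 scale, while the median gap over all genes was -0.02 and 0.11. CDK1 was at 1137 and 2355 in unsorted MC26 and at 1152 and 2209 in unsorted M1B26, and NDC80 at 303 and 798 and at 406 and 550. In unsorted MCF10A-CT 29 members were higher in replicate 2 and 27 lower, with a median gap of 0.02. This spread enters every comparison with the unsorted arrays of those lines. Since 1 fit gave each gene a spread shared by all groups, it also enters the SE of the contrasts without unsorted arrays.

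CD10+ and CD10- cells were compared within each line, the contrast on which the study chose ENI10, its signature of CD10+ MCF10A-CT cells. In a flow cytometry analysis of MCF10A cells, the study reported that G2-M cells were not out of balance between CD10+ and CD10- cells. In MCF10A-CT no member passed, nor did any other gene (0% of all genes), and 8 members had an unadjusted p under 0.05. With the unmoderated test no member passed either. With each pair of same-numbered CD10- and CD10+ arrays as a random block no gene passed, and 20 members had an unadjusted p under 0.05. The members lay on the CD10+ side, with 54 of 56 above 0 and a median of 0.44 (1.36-fold). They moved together across arrays (median pairwise correlation 0.94 over the 18 arrays), so this count does not stand for 56 separate results. The 2 CD10+ arrays were both above the 2 CD10- arrays for 40 members, against 6.93% of all genes. ENI10 holds 35 of the members, chosen on these same 4 arrays, and their median of 0.54 with 35 of 35 above 0 is therefore no independent evidence. The 21 members outside ENI10 had a median of 0.29 with 19 above 0, and for 12 of them the arrays did not overlap. They were read on the same 4 arrays and moved with the members in ENI10, so they are no independent evidence either.

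Examples of single members follow. HJURP, CKAP2L, CDC25C, CDK1 and TTK are in ENI10, chosen on these same arrays. Their values are therefore no independent measure of the shift. HJURP had the smallest p (1.05 ± 0.34), followed by CKAP2L (0.75 ± 0.29) and CDC25C (0.70 ± 0.27), each with a limma adjusted p of 1. CDK1 was at 452 and 556 in CD10- and 760 and 826 in CD10+ cells (0.66), and TTK at 159 and 153 against 276 and 245 (0.73). For PLK1 (-0.13), FOXM1 (-0.05) and PTTG1 (0.00), all outside ENI10, the difference was smaller than its SE. Other members outside ENI10 had larger differences, such as KIF15, with mean log2 levels of 4.981 in CD10- and 5.865 in CD10+ cells. In both populations CDK1, TTK and FOXM1 stayed below every unsorted MCF10A-CT array.

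In MC26 and M1B26 the members' medians lay below 0. In MC26 no gene passed (0% of all genes), and no member had an unadjusted p under 0.05. The members' median was -0.14 with 3 of 56 above 0, close to the median of -0.10 over all genes, of which 8921 of 12171 were below 0. Without replicate 1 of CD10+ MC26 the members' median was 0.03. The smallest p values were those of CCNB2 (-0.23 ± 0.21), ESPL1 (-0.32 ± 0.32) and KIF14 (-0.32 ± 0.32). In M1B26 6.5% of all genes passed but no member, with a median of -0.08, 18 of 56 above 0 and 2 members at an unadjusted p under 0.05. CKS1B (-0.51 ± 0.18, limma adjusted p = 0.118), PTTG1 (-0.44 ± 0.20) and CCNB1 (-0.53 ± 0.26) had the smallest p. Tested directly, the CD10 difference of MC26 minus that of MCF10A-CT passed for no gene (0% of all genes), with a members' median of -0.60 and 55 of 56 below 0. That of M1B26 minus MCF10A-CT passed for no member, with 1.38% of all genes called and a median of -0.54. In each, 4 members had an unadjusted p under 0.05. KIF14, TTK and HJURP led in MC26 (-1.12, -0.96 and -1.14) and KIF14, CKS1B and CCNB1 in M1B26 (-1.39, -0.75 and -0.81), none of them past the threshold. Of these named members all but CKS1B are in ENI10. Both contrasts use the sorted MCF10A-CT arrays on which the 35 members in ENI10 were chosen. For those members the values are therefore no independent evidence, and the members outside ENI10 moved with them on the same arrays.

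**Figure D4:**
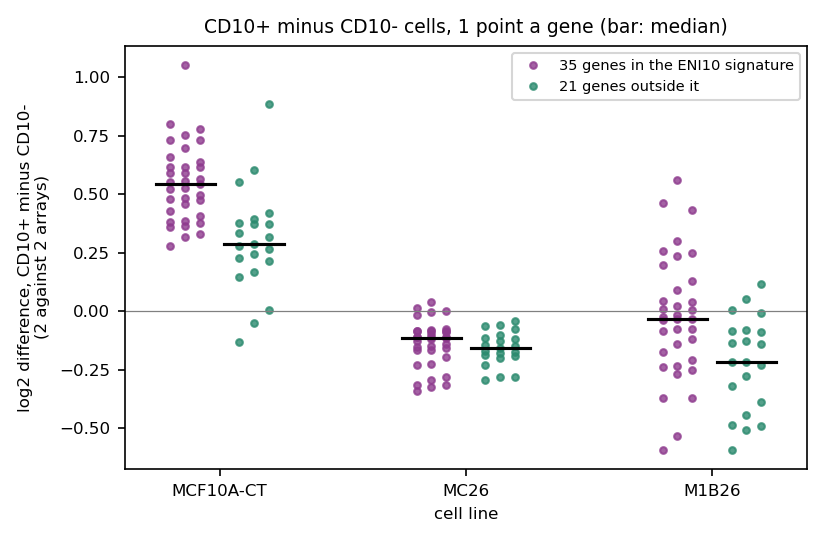
Each point is the log2 difference between CD10+ and CD10- cells (2 against 2 arrays) for a gene, by cell line, with the 35 genes of the ENI10 signature and the 21 outside it in separate columns and the median of each as a bar. The MCF10A-CT points lie mostly above 0, with medians of 0.54 and 0.29, and those of MC26 and M1B26 around or below it.

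The lines were then compared within each population. Among unsorted cells no member passed for MC26 against MCF10A-CT (0.32% of all genes called, members' median -0.28) or for M1B26 against MCF10A-CT (0.674% called, median -0.28). In each, 1 member, PLK1, had an unadjusted p under 0.05, at -0.86 ± 0.34 and -0.80 ± 0.34, and TACC3 and SPC24 were among the next. Between M1B26 and MC26 the median was -0.01, with no member called (0.0986% of all genes) and none with an unadjusted p under 0.05. The sign of each of these 3 medians rested on single unsorted arrays. Without replicate 1 of MC26 or of M1B26 the medians against MCF10A-CT were 0.22 and 0.07, without replicate 2 they were -0.74 and -0.65, and between M1B26 and MC26 the median ranged from -0.53 to 0.44. The smallest p values there were those of TOP2A (0.30 ± 0.27), CCNB1 (-0.27 ± 0.26) and KIF14 (0.31 ± 0.32).

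Among CD10- cells all 56 members were higher in MC26 than in MCF10A-CT (13.4% of all genes higher), with a median of 2.04, and all 56 in M1B26 (19.8% higher), with a median of 2.03. Both comparisons share the 2 CD10- MCF10A-CT arrays. The 35 members in ENI10 were chosen on the sorted MCF10A-CT arrays. Their values here, and among CD10+ cells below, are therefore no independent evidence. The 21 members outside ENI10 were also all higher in both comparisons. They were read on the same arrays and moved with the 35, so they are no independent evidence either. HMMR led in each (2.41 ± 0.26, limma adjusted p = 2.47e-04, and 2.34 ± 0.26, limma adjusted p = 1.55e-04), followed by NUF2 (2.15 and 2.00). CKS1B (1.50), PRC1 (2.22) and CDC25C (2.08) were next for MC26, and CCNB1 (2.12), KIF14 (2.52) and CKS1B (1.41) for M1B26. Among CD10+ cells 47 members were higher in MC26 (7.99% of all genes higher, median 1.41) and 53 in M1B26 (21.1% higher, median 1.37). NUF2 (1.63), MELK (1.90), HMMR (1.64), CCNB1 (1.57) and CKS1B (1.08) had the smallest p for MC26, and HMMR (1.85), MELK (1.89), NDC80 (2.46), PLK1 (2.24) and NUF2 (1.49) for M1B26. TOP2A (0.65, limma adjusted p = 0.121) and CENPA (0.72, limma adjusted p = 0.111) were among the 9 that did not pass in MC26, and NEK2, CENPA and PTTG1 were the 3 in M1B26. The 2 CD10+ M1B26 arrays stood apart in the mammary epithelial markers, whose mean deviation was -1.06 and -1.05 there, against 0.53 and 0.26 in CD10+ MCF10A-CT. Of the 16 markers 9 were lower and 1 was higher in that comparison, and 8 were lower in CD10+ than in CD10- M1B26 cells. Their part in the members' values was not tested. The CD10+ counts leaned on single arrays, falling to 11 without replicate 2 of CD10+ MC26 and 14 without replicate 2 of CD10+ MCF10A-CT. For M1B26 they fell to 21 without its own replicate 2, to 24 without replicate 2 of CD10+ MCF10A-CT and to 34 without its own replicate 1.

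**Figure D5:**
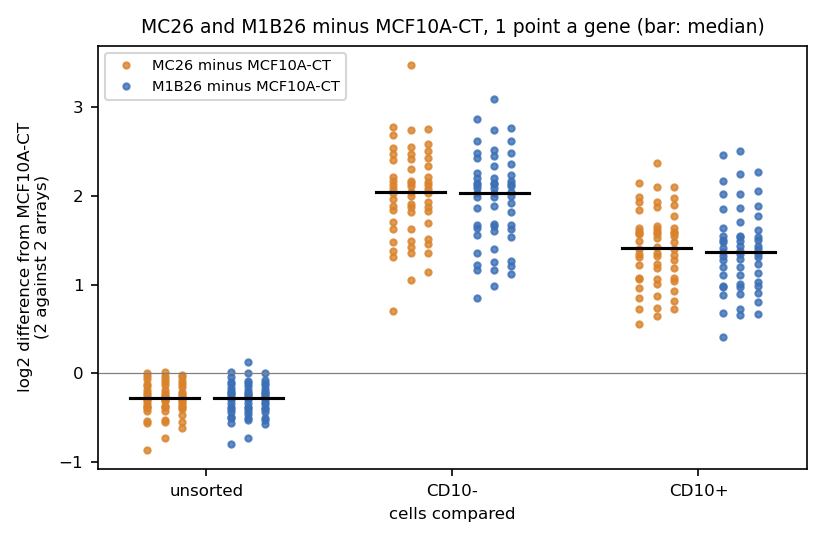
Each point is the log2 difference of a gene between MC26 or M1B26 and MCF10A-CT (2 against 2 arrays) among unsorted, CD10- or CD10+ cells, with the median as a bar. The medians are -0.28 and -0.28 in unsorted cells, where their sign turns without replicate 1 of MC26 or of M1B26, 2.04 and 2.03 in CD10- and 1.41 and 1.37 in CD10+ cells.

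The members followed each other closely across arrays. Over the 18 arrays the median correlation between 2 members was 0.94, a value shaped by the 4 low arrays. Over the 14 arrays without sorted MCF10A-CT it was still 0.73, and 1531 of 1540 pairs were above 0. The correlation of a member with the mean of the others had a median of 0.97 over 18 arrays and 0.86 over 14, while over the other genes the median correlation with the members' mean was 0.18 and 0.05. PRC1 (0.997), NCAPG (0.993) and NCAPH (0.993) were closest to the other members over 18 arrays, and CKS2 (0.884), PTTG1 (0.885) and AURKB (0.887) were farthest. Without the sorted MCF10A-CT arrays CDC25C (0.42), CKS1B (0.46) and CKAP2L (0.46) were the lowest. These are descriptions, since the arrays fall into groups of the same line and sort.

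Of the genes outside the module 335 had a correlation of at least 0.9 with the members' mean over the 18 arrays, 42 of them among the other mitotic genes and 33 among the G1-S genes. The 10 most like it were DIAPH3 (0.991), CDCA5 (0.989), KIF18B (0.988), CENPU (0.987), UBE2T (0.985), ZWINT (0.982), TMPO (0.982), BIRC5 (0.981), CDCA2 (0.981) and KPNA2 (0.98). Over the 14 arrays without sorted MCF10A-CT their correlations ran from 0.876 to 0.977.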

How the data were processed

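The authors hybridised RNA of each sample to an Affymetrix HG-U133 Plus 2.0 array, and their processing notes name Expression Console and MAS5 without a version. What they deposited is a linear intensity for every probe set on every array, with a median of 16.65 on every array and upper quartiles of 95.1 to 124. The study's methods also name RMA and quantile normalization, which these values do not show.

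Intensities were taken as log2(intensity + 1), the deposited table holding no log2 values. Of 54675 probe sets 62 were controls, 41091 had 1 gene, 1801 several and 11721 none. Each of 19775 genes was read by its probe set with the highest mean, and 12171 genes with a mean above log2 3.93 (the median of all probe set means) were tested. limma 3.58.1 in R 4.3.3 fitted 9 group means (9 residual degrees of freedom, eBayes with an intensity trend), two-sided, in 17 contrasts, each with Benjamini-Hochberg adjustment over all genes and a threshold of 0.05. Errors after ± are SEs, and the median SE between 2 groups was 0.296; for arrays, their number limits the precision. The script was checked on simulated data.

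The members, lists and tests were chosen with earlier results of these data known. Genes named are 22 members given whatever their values, up to 5 called members with the smallest p in each contrast and direction (otherwise the 3 with the smallest p), the 3 closest to and 3 farthest from the other members, the 10 most like genes outside, MKI67, BIRC5, CDCA8 and ANLN, and members whose probe sets differ in sign. The 4 arrest genes, CDKN1A, GAS1, RB1 and a few further members were named after their values were seen. Alternatives covered the offset, filter, normalization, probe set choice, moderation, array weights, samples fitted, replicate block and leaving out each array. Sorted cells as CD10- or CD10+ alone, and same-numbered CD10- and CD10+ arrays as a random block (duplicateCorrelation), were added after seeing the data.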

Additional observations from a re-analysis of the deposited data

Results flagged for a closer look

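The sorted minus unsorted difference was not the same in the lines, by a direct test of that difference. It was higher in MC26 than in MCF10A-CT for 55 members (median 2.03) and higher in M1B26 than in MCF10A-CT for 54 members (median 2.04), both against the same MCF10A-CT arrays. Over all genes 4.03% and 9.14% were called higher. The counts fell to 20 and 13 with 1 array left out, and to 3 and 32 with the unmoderated test.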

How the results depend on the processing

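The count of 56 lower members in sorted MCF10A-CT cells was 53 with the mean over a gene's probe sets, 41 of 42 with probe sets that can bind related transcripts left out, and 54 to 56 with an array left out. The unmoderated test gave 3 and 32 members in place of 55 and 54 for the differences of MC26 and M1B26 from MCF10A-CT, and 27 in place of 47 for CD10+ MC26 against MCF10A-CT. For CD10+ M1B26 against MCF10A-CT, 33 members passed in place of 53 with quantile normalization and 32 with centred arrays. Quantile normalization called 1 member in place of 0 for sorted against unsorted M1B26, for CD10 in M1B26 (1 with centred arrays too) and for its difference from MCF10A-CT. The replicate block within a line called 1 in place of 0 for sorted against unsorted MC26 and moved no other count by over 1.5 times. Same-numbered CD10- and CD10+ arrays deviated together (correlations of 0.635, 0.361 and 0.184 in MCF10A-CT, MC26 and M1B26). So did the same-numbered unsorted arrays of MC26 and M1B26 (0.458), so the sorted minus unsorted results of these lines may not be independent. With 2 numbers a line and no statement in the labels, pairing is not established. With such a sorted pair as a random replicate block, added after seeing the data (correlation 0.405), 56 members stayed lower in sorted MCF10A-CT cells, their SE being 1.07 times as large at the median. The counts for the differences of MC26 and M1B26 from MCF10A-CT were then 49 and 53, and 1 member passed in place of 0 for CD10 in M1B26 and for its difference from MCF10A-CT. The causes of these changes were not tested. With an array left out, the counts were 0 to 1 for sorted against unsorted MC26 (1 without replicate 2 of unsorted MC26), 20 to 56 and 13 to 55 for the differences of MC26 and M1B26 from MCF10A-CT, 48 to 56 and 52 to 56 for MC26 and M1B26 among CD10- cells, and 11 to 51 and 21 to 54 among CD10+ cells. In the fits without an array, the lone array of a group was assumed to vary like the other groups. For 22 members in MCF10A-CT, 318 of 322 values under other settings kept direction and call, none reversed, and 4 lost the call: AURKA as given, RACGAP1 (adjusted p = 0.0581) and TOP2A (0.0619) with an array left out, and TOP2A with CD10+ cells alone (-0.79, adjusted p = 0.0664).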
